A study of Homo sapiens with 12 samples.

Results

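The forkhead (FOX) and SRY-box (SOX) transcription factor genes were followed across 12 RNA-seq libraries of human carcinoma cells. Members were all genes whose name is FOX, a letter and a number, or SOX and a number, with FOXA1, FOXA2, FOXA3 and FOXM1 left out. The rule uses names only and no measured value. It found 66 genes among the 25647 that all 12 tables list: 47 FOX genes and 19 SOX genes.

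Cells were treated with 1 µM trichostatin A (TSA), which inhibits histone deacetylases, with 50 µM GSK126, which inhibits the histone methyltransferase EZH2, or with 100 µM S2101, which inhibits the histone demethylase LSD1 (gene KDM1A), or were left untreated. Each of the 4 conditions was applied to A549 (lung adenocarcinoma), HCT116 (colorectal carcinoma) and cells labelled MHCC97H (hepatocellular carcinoma), giving 1 poly(A) RNA library per line and condition. A549 and MHCC97H grew in DMEM and HCT116 in RPMI, so HCT116 and its medium cannot be told apart. How long the cells were treated, and in which vehicle, is not stated in the labels. The replicates of a condition are therefore the 3 lines. For a compound, p-values measure a change against how far condition effects differ between lines, not between repeat cultures. That spread is pooled over all 4 conditions, so it is not that of the compound alone. For a difference between lines, they measure whether it recurs over the 4 conditions, with no repeat culture of a line. In each list of 3 values below, the order is A549, HCT116, MHCC97H.

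Forkhead proteins bind DNA through a winged-helix domain and SOX proteins through an HMG box that bends the helix. Many act early in lineage choice: FOXO proteins relay insulin and PI3K-AKT signalling, FOXJ1 drives motile ciliogenesis, SOX2 maintains pluripotent and neural progenitor cells, and SOX9 directs cartilage and gut progenitor programmes. Promoters of developmental FOX and SOX genes are known for CpG islands, and many are held by Polycomb complexes that contain EZH2 in cells that do not use them.

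Library depth ran from 14468304 to 19061367 counts over all genes. A floor of 3 reads was therefore 0.157 to 0.207 CPM (read counts scaled to the library total). Lineage markers of the untreated lines were mixed. In MHCC97H 5 of 8 hepatocyte markers reached 1 CPM (APOB 13.6, FGB 5.87, TF 3.06, SERPINA1 2.99 and AFP 2.43 CPM), while ALB, APOA1 and TTR were at 0.499, 0.374 and 0 CPM, and the 8 summed to 28.8 CPM. The colon markers KRT20, LGALS4, CDH17 and VIL1 stood at 1030, 148, 119 and 24 CPM in the same library and EPCAM at 0.187 CPM; 5 of 8 colon markers reached 1 CPM there, against 2 of 8 in HCT116. In untreated MHCC97H the colon marker CDX2 was at 3.68 CPM, and CDX1 and MUC2 were at 0. The hepatocyte markers summed to less in the other untreated lines, 9.27 CPM in A549 and 5.34 CPM in HCT116. Several of the MHCC97H levels, such as those of KRT20 and ALB, go against its hepatocellular label. The libraries are called by that label and the line's identity was not tested. HCT116 had 239 CPM of EPCAM and 12.6 CPM of CDX2 but 0 of CDX1 and MUC2. A549 had 7.03 CPM of MUC5B and 1.73 CPM of SFTPB but 0 of NKX2-1, SFTPA1 and SFTPA2. One library stood apart: 32 genes that were under 0.1 CPM in untreated A549 and at least 10 CPM in TSA-treated A549 summed to 7.9% of their TSA level in the A549 S2101 library, against 2.11% in A549 GSK126, 0.129% in untreated A549 and 0.451% of the corresponding 38 genes in MHCC97H S2101. The untreated share was low by the choice of these genes. In HCT116 the corresponding 3 genes summed to 3.01% of their TSA level under GSK126 and 0.859% under S2101. Calls in compound contrasts that turn on the A549 S2101 library are given with and without it.

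Promoter sequences (RefSeq, GRCh38.p14, from 250 bases before to 50 after the gene start) were found for 41 of the 66 members. Members had a median of 22 CG dinucleotides in the 300 bases, against 14 over all 35116 promoters, with a range of 1 to 55. The GC box GGGCGG, searched on both strands like the other motifs, was found in 30 of 41 members (73.2%), against 45% of all promoters. CCAAT was found in 36.6% of members and 34.6% of all, TATAAA in 14.6% and 11.5%, and the SOX motif AACAAT in 4.88% and 10.1%. The forkhead motif GTAAACA was found in 4.88% of members (FOXO4 and SOX12), against 3.42% of all promoters. No member promoter had overlapping matches of different motifs (count of 0). Shown here are the promoters of the 3 FOXO genes that rose under TSA and of the 2 FOX genes that fell most, with motif matches in capitals.
FOXO1, chr13:40666592-40666891, minus strand, 5 GC boxes and 1 CCAAT on the other strand.
FOXO1: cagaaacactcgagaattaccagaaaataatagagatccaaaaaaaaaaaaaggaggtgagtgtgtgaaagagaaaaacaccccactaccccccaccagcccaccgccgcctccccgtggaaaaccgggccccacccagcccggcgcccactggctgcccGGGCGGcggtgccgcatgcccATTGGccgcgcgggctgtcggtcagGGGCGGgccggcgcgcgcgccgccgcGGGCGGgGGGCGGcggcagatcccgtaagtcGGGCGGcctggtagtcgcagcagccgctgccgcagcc
FOXO4, chrX:71095601-71095900, plus strand, with its forkhead match close to the 3′ end and 0 GC boxes.
FOXO4: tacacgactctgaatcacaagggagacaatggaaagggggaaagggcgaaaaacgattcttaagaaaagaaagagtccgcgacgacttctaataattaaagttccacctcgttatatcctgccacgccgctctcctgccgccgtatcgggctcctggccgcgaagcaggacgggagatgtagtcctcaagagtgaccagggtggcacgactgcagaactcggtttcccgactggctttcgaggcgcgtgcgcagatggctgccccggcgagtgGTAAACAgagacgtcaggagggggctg
FOXO6, chr1:41361184-41361483, plus strand, 6 GC boxes and 42 CG dinucleotides.
FOXO6: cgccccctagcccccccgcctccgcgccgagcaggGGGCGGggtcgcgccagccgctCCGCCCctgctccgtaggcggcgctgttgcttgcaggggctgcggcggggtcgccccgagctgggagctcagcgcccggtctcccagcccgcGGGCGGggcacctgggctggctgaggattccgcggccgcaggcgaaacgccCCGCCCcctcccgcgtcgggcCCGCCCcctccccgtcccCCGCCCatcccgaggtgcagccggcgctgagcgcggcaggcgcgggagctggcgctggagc
FOXQ1, chr6:1311848-1312147, plus strand, 1 GC box and 2 CCAAT matches on the other strand.
FOXQ1: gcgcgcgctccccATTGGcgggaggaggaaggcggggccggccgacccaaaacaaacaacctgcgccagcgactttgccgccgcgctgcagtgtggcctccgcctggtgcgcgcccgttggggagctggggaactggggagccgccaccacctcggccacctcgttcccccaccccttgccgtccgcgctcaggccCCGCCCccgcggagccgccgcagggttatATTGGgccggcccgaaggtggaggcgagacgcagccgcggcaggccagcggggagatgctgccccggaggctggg
FOXL2, chr3:138947088-138947387, minus strand, 2 GC boxes.
FOXL2: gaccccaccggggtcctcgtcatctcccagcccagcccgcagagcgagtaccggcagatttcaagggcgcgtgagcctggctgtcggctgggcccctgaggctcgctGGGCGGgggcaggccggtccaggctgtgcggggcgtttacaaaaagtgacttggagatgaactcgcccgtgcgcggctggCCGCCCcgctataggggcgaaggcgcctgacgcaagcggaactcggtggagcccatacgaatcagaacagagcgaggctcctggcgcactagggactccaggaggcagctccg
FOXO1 and FOXO6 both have several GC boxes, whereas the FOXO4 window has 0. FOXQ1 and FOXL2, which fell, carry GC boxes too. A match is a description of the letters and not a bound site.

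Across the 12 libraries SOX4, a SOXC factor of progenitor and tumour cells, had the highest level per transcript length of all members (mean deposited RPKM 48.2, range 13.1 to 155). FOXK2, FOXK1, FOXJ3, SOX12, FOXQ1, SOX9, FOXO3, FOXJ2, FOXC1, FOXP4 and SOX13 followed, with means of 26.8 down to 7.48 RPKM. At a level of at least 1 CPM, 20 members were detected in all 12 libraries, 28 in some and 18 in none. The 20 found everywhere were FOXC1, FOXD2, FOXH1, FOXJ2, FOXJ3, FOXK1, FOXK2, FOXL1, FOXN2, FOXN3, FOXO1, FOXO3, FOXO3B, FOXO4, FOXP1, FOXP4, SOX4, SOX9, SOX12 and SOX13. Those under 1 CPM throughout included FOXB1, FOXB2, FOXD4L1, FOXD4L3, FOXD4L4, FOXD4L5, FOXE3, FOXI1, FOXI2, FOXN1, FOXR2, FOXS1, SOX1, SOX3, SOX5, SOX14 and SOX30, of which FOXB2, FOXD4L4, FOXI1 and SOX1 had 0 reads in all 12. A count of 0 allows up to 3 reads, 0.157 to 0.207 CPM by library.

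The FOXK proteins, widely expressed regulators of autophagy and glycolysis, came next in level. FOXK2 had 24.6, 23.2 and 37.3 RPKM under TSA, 26.3, 31.8 and 30.8 under GSK126, 23.4, 27.0 and 27.1 under S2101, and 20.7, 22.5 and 26.8 untreated. FOXK1 had 11.8, 21.0 and 18.8 RPKM under TSA, 17.9, 25.7 and 20.9 under GSK126, 14.3, 24.8 and 18.5 under S2101, and 14.3, 21.2 and 14.5 untreated. The values of the conditions overlapped for both genes. FOXJ3 had 14.6, 20.5 and 13.0 RPKM under TSA, 14.3, 20.6 and 14.9 under GSK126, 12.3, 20.1 and 15.2 under S2101, and 12.5, 19.3 and 11.5 untreated. FOXP4, which acts with FOXP1 and FOXP2 in lung epithelium in mice, had 6.58, 8.80 and 8.92 RPKM under TSA, 7.03, 9.11 and 8.26 under GSK126, 7.30, 8.44 and 7.32 under S2101, and 6.06, 9.80 and 6.59 untreated. FOXJ3 was higher in all 4 HCT116 libraries than in any library of the other lines, and the FOXP4 values of the conditions overlapped. Neither gene was called in any compound contrast.

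SOX12, the SOXC relative of SOX4, had 9.96, 22.1 and 4.79 RPKM under TSA, 24.5, 15 and 4.90 under GSK126, 23.0, 14.7 and 3.34 under S2101, and 23.9, 16.0 and 3.56 untreated. In A549 its TSA library was lower than the other 3 and in HCT116 its TSA library was higher. SOX13, a SOXD factor, had 3.51, 6.07 and 10.8 RPKM under TSA, 4.46, 4.83 and 12.8 under GSK126, 3.93, 6.92 and 13.5 under S2101, and 4.63, 5.20 and 13.2 untreated, highest in MHCC97H in every condition.

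**Figure D1:**
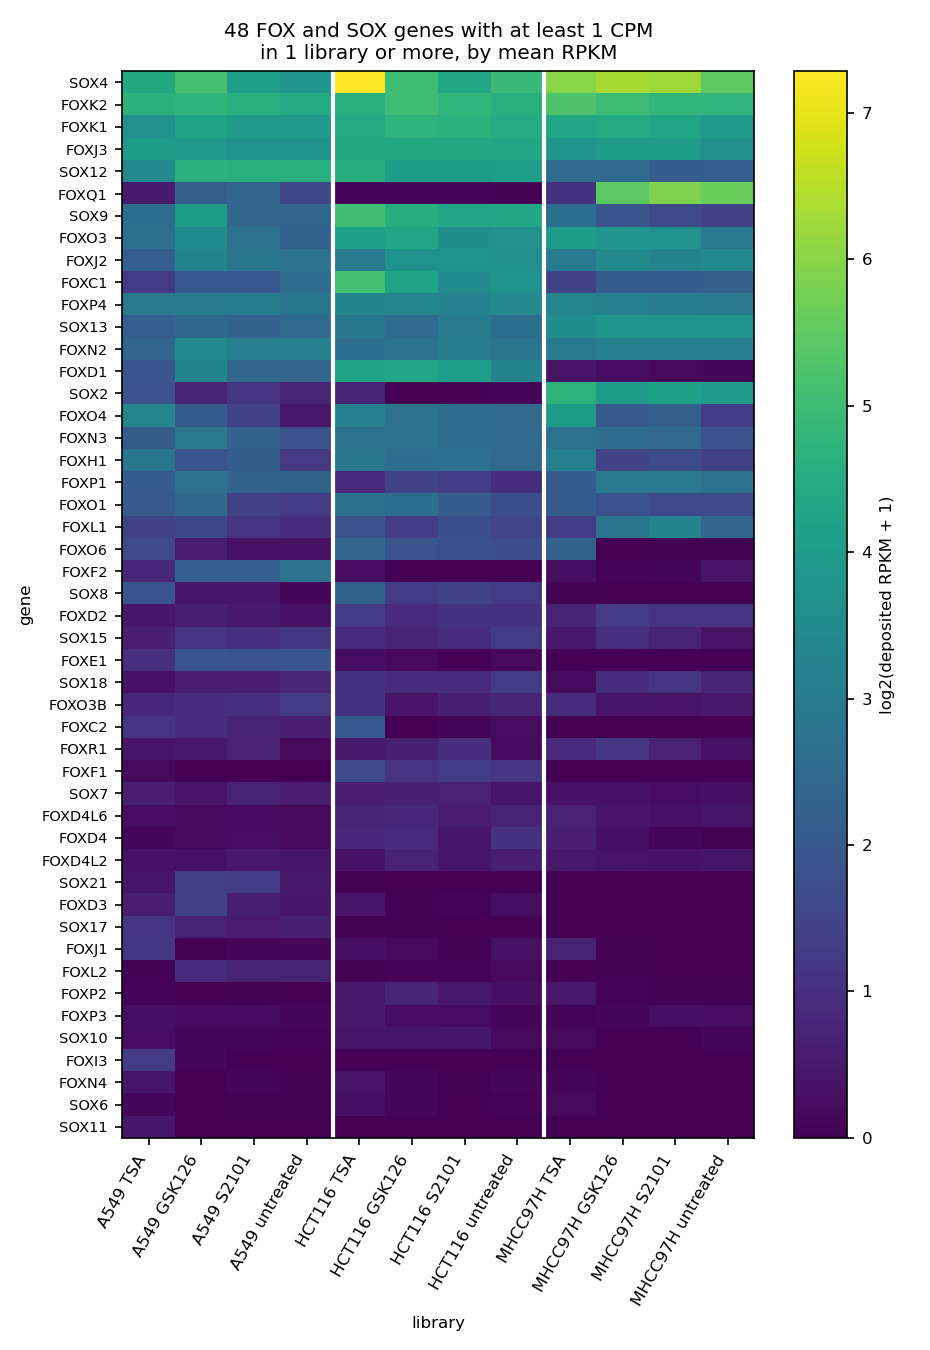
Heat map of log2(deposited RPKM + 1) for the 48 FOX and SOX genes that reached at least 1 CPM in 1 library or more (rows, by mean RPKM) in the 12 libraries (columns, by line, untreated last in each line). SOX4 and the FOXK genes are bright in all columns, whereas FOXQ1, SOX2, FOXD1 and SOX12 change between the blocks of a line.

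A fit across all genes had 46 members among the 16929 genes that passed a filter on low counts, so the counts below are not of all 66. The filter removed the 18 members under 1 CPM throughout except FOXD4L1, and FOXI3, FOXP3 and SOX11. Calls are edgeR quasi-likelihood tests with a Benjamini-Hochberg adjusted p under 0.05 over all genes tested. Levels below are CPM scaled by TMM.

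Members differed between the lines about as often as other genes did. Of 46 members, 25 were called in A549 against MHCC97H (12 higher, 13 lower; 43% of all genes were called, 22.6% higher and 20.4% lower), 23 in A549 against HCT116 (8 higher, 15 lower; 43.7% of all, 22.8% higher and 20.9% lower) and 23 in HCT116 against MHCC97H (16 higher, 7 lower; 54.4% of all, 27.5% higher and 26.9% lower). In a fit with no term for condition, which tested 41 members, the counts in the same order were 18, 19 and 14. The share of all genes called in that fit was not counted. The 4 libraries of a line differ in treatment, so their spread holds the compounds' effects too.

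Called higher in A549 than in both other lines were FOXE1, FOXF2, FOXL2, SOX17 and SOX21. FOXE1, a thyroid and palate factor, had 3.14, 10.1, 9.23 and 10.6 CPM in the TSA, GSK126, S2101 and untreated libraries of A549, against 0.0549 to 0.601 in HCT116 and 0 to 0.0702 in MHCC97H. FOXF2, a factor of gut and lung mesenchyme, had 1.54, 7.69, 7.66 and 13.4 CPM in these A549 libraries, against 0 to 0.361 in HCT116 and 0.133 to 0.773 in MHCC97H. Every A549 library of both genes lay above every library of the other lines. SOX17, an endoderm and arterial SOXF factor, had 2.4, 1.49, 1.11 and 1.45 CPM in A549, against 0 to 0.068 in HCT116 and 0 in MHCC97H. SOX21, a SOXB2 factor that counters SOX2 in neural progenitors, had 0.74, 4.07, 3.67 and 1.03 CPM in A549, against 0 to 0.0601 in HCT116 and 0 in MHCC97H. FOXL2, the granulosa cell factor of the ovary, was the exception: its A549 TSA library, at 0.0616 CPM, lay within the range of HCT116 (0.0601 to 0.293), while its other A549 libraries had 1.83 to 2.52 CPM.

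HCT116 was called higher than both other lines for FOXC1, FOXD1, FOXD4, FOXF1, FOXJ3, FOXO6, FOXP2, SOX8 and SOX9. SOX9 had 17.1 to 58.9 CPM in A549, 114, 87.5, 68.8 and 72.9 CPM in the TSA, GSK126, S2101 and untreated libraries of HCT116, and 8.15 to 20.1 in MHCC97H. FOXD1, a factor of kidney stroma, had 5.86 to 19.8 CPM in A549, 35.7, 41.6, 33.3 and 18.6 in HCT116, and 0.211 to 0.663 in MHCC97H. SOX9 did not overlap between HCT116 and the other lines, whereas untreated HCT116 lay within the A549 range for FOXD1. FOXF1, which patterns lung and gut mesenchyme, had 0 to 0.247 CPM in A549, 4.81, 2.99, 3.52 and 2.99 in HCT116, and 0 in MHCC97H. FOXP2, a neural factor linked to speech, had 0.0646 to 0.247 CPM in A549, 2.23, 4.35, 2.31 and 1.41 in HCT116, and 0.211 to 2.39 in MHCC97H. FOXD4 had 0.185 to 0.393 CPM in A549, 1.5, 1.77, 0.714 and 2.23 in HCT116, and 0.0702 to 1.13 in MHCC97H, so HCT116 and MHCC97H overlapped for FOXP2 and FOXD4. FOXD4 and the FOXD4L genes are near-identical copies, and reads could have been split between them, so their values are uncertain. FOXJ3, a forkhead factor of muscle in mice, had 66.1 to 77.0 CPM in A549, 98.9, 109, 100 and 99.2 in HCT116, and 67.6 to 89.9 in MHCC97H. FOXC1 had 4.32 to 19.0 CPM in A549, 102, 60, 33.5 and 41.3 in HCT116, and 5.63 to 14.0 in MHCC97H, and like FOXJ3 and FOXF1 it did not overlap between HCT116 and the other lines. FOXO6 and SOX8, which also changed under TSA, had 9.20, 6.26, 5.33 and 5.21 CPM and 10.5, 4.42, 5.11 and 4.22 CPM in these HCT116 libraries. Both overlapped with a TSA library of another line, FOXO6 with MHCC97H (9.14 CPM) and SOX8 with A549 (7.64 CPM).

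MHCC97H was called higher than both others for SOX2, FOXQ1, FOXL1, SOX13 and FOXK2. SOX2 had 1.62 to 6.04 CPM in A549, 0 to 1.5 in HCT116, and 61.8, 41.6, 46.4 and 39.8 in the TSA, GSK126, S2101 and untreated libraries of MHCC97H. The log2 difference of HCT116 against MHCC97H for SOX2 was -7.42 ± 0.75 (SE; edgeR, BH-adjusted p = 5.3e-05). SOX2 lies within the transcript SOX2-OT on the same strand, and reads of that transcript were not told apart. FOXL1, a factor of the gut's mesenchyme, had 3.17 to 6.33 CPM in A549, 4.69 to 7.7 in HCT116, and 4.44, 20.8, 30.8 and 15.5 in MHCC97H, where the TSA library fell within the range of the other lines. SOX13 had 13.1 to 20.5 CPM in A549, 19.4 to 26.3 in HCT116, and 42.7, 57.0, 60.9 and 60.7 in MHCC97H, with no overlap. FOXQ1 had 0.925 to 9.82 CPM in A549, 0.0586 to 0.136 in HCT116, and 2.45, 109, 148 and 128 in MHCC97H, where the TSA library again lay within the A549 range. FOXK2 had 118 to 139 CPM in A549, 110 to 165 in HCT116, and 191, 177, 158 and 159 in MHCC97H, where HCT116 and MHCC97H overlapped.

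**Figure D2:**
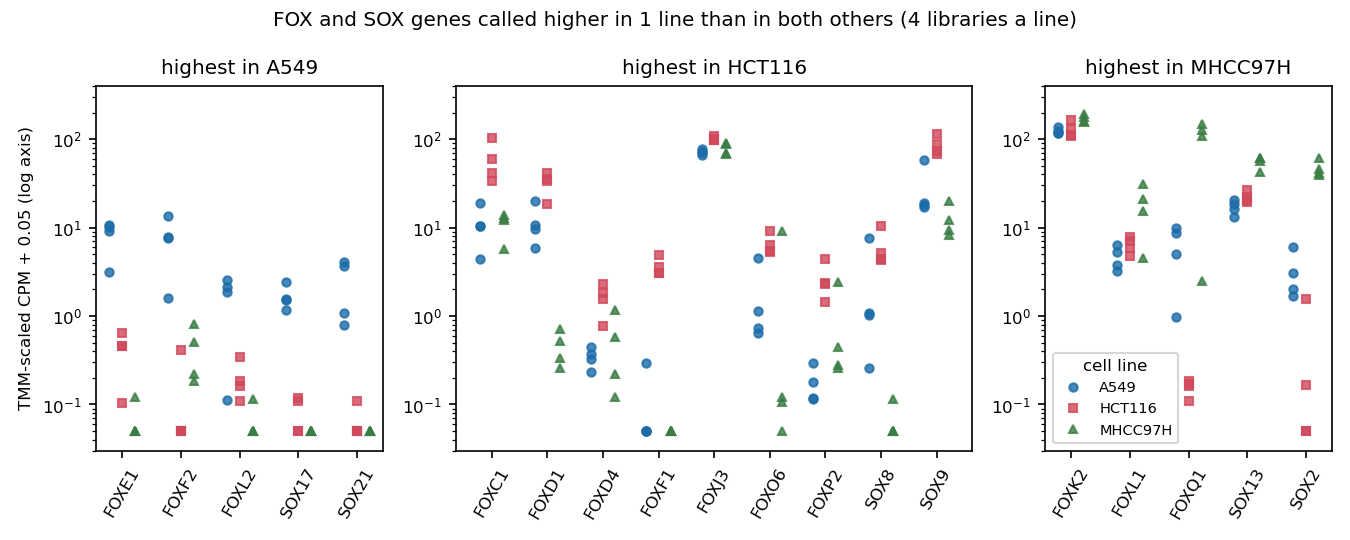
TMM-scaled CPM plus 0.05 (log axis) of the 19 FOX and SOX genes called higher in 1 line than in both others, 1 point per library. The share of all genes with this pattern was not counted. All points of the highest line lie above those of the other lines for FOXE1, FOXF2, SOX17, SOX21, FOXC1, FOXF1, FOXJ3, SOX9, SOX13 and SOX2, and overlap with them for FOXL2, FOXD1, FOXD4, FOXO6, FOXP2, SOX8, FOXK2, FOXL1 and FOXQ1.

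Under TSA, 11 of the 46 members were called against untreated, 7 higher and 4 lower, which is 23.9% against 34.6% of all genes, so members were not called more often than other genes. The genes that rose were FOXO1, FOXO4, FOXO6, FOXH1, FOXN4, FOXR1 and SOX8, and those that fell were FOXJ2, FOXL2, FOXP1 and FOXQ1. Over all genes 17.4% were called higher and 17.2% lower. The median log2 change was 0.36 over the 46 members and 0.08 over all genes. Of the 33 FOX genes tested 10 were called, and of the 13 SOX genes 1. None of the 11 was called when MHCC97H was left out of every condition (7.05% of all genes were called then) or when A549 was left out (0.0741%; FOXL2 and FOXN4 were not tested there). Without HCT116, 10 members were called (40% of all genes), 7 of them among the 11. Leaving out the A549 S2101 library alone gave 8 calls (28% of all genes), without FOXO6, FOXP1 and FOXR1. DESeq2 called 14 members (36.9% of all genes), 9 of them among the 11, and edgeR with RLE size factors called 11 (34.4%), with FOXP2 in place of FOXP1.

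Within lines, 16 of the 46 members were higher in the TSA library of all 3 lines (34.8%, against 28.3% of all genes) and 6 lower in all 3 (13%, against 26.5%). The 6 were FOXD4L2, FOXJ2, FOXJ3, FOXN2, FOXP1 and SOX18.

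The FOXO genes, whose proteins AKT phosphorylation keeps out of the nucleus, rose under TSA in 3 of the 4 main members. FOXO4 had 27.9, 24.7 and 48.3 CPM in TSA libraries, against 1.45, 15.2 and 5.41 in untreated ones. All 3 TSA values lay above all untreated values, and the smallest gain was in HCT116. The mean was 33.6 ± 12.8 CPM under TSA and 7.34 ± 7.06 untreated (SD, n = 3 each), a log2 change of 2.57 ± 0.58 (SE; edgeR, BH-adjusted p = 0.0103). Without A549 the change was 2.01 and without HCT116 3.64. FOXO1 had 16.2, 28.2 and 18.5 CPM under TSA, against 9.04, 12.9 and 13.1 untreated, again without overlap. Its means were 21.0 ± 6.37 under TSA and 11.7 ± 2.29 untreated, with a log2 change of 0.81 ± 0.25 (edgeR, BH-adjusted p = 0.0332). FOXO1 lost its call when any single line was left out, with changes of 0.71 to 1.02.

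FOXO6, known mainly from the brain, had 4.44, 9.20 and 9.14 CPM under TSA, against 0.69, 5.21 and 0.0702 untreated. The HCT116 untreated library lay above the A549 TSA library, and MHCC97H had the widest gap. The means were 7.59 ± 2.73 and 1.99 ± 2.81 CPM, with a log2 change of 3.57 ± 1.19 (edgeR, BH-adjusted p = 0.0437) that was 1.81 without MHCC97H, 4.43 without A549 and 4.81 without HCT116. It was not called without the A549 S2101 library (BH-adjusted p = 0.0646 in edgeR). FOXO3 had 36.8, 108 and 106 CPM under TSA, against 30.9, 83.7 and 56.2 untreated, and its log2 change of 0.52 ± 0.23 was not called (edgeR, BH-adjusted p = 0.106). FOXO3B, a copy of FOXO3 that shares its sequence, had 5.05, 7.1 and 6.69 CPM under TSA and 10.8, 4.75 and 3.37 untreated; how shared reads were counted is not given, so both are uncertain. FOXO6 overlaps an antisense transcript, and the handling of strand is not given either.

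FOXH1, the partner through which SMAD2 and SMAD3 read Nodal and activin signals, had 12.4, 12.2 and 16.8 CPM under TSA, against 3.10, 10 and 4.14 untreated. The groups did not overlap. FOXH1 averaged 13.8 ± 2.62 CPM under TSA and 5.76 ± 3.73 untreated (log2 change 1.47 ± 0.39; edgeR, BH-adjusted p = 0.0195; 2.06 without HCT116). The gene overlaps KIFC2 on the other strand. SOX8, a SOXE factor of neural crest and testis, had 7.64, 10.5 and 0.0663 CPM under TSA, against 0.207, 4.22 and 0 untreated. SOX8 gained most in A549, while MHCC97H had 1 read under TSA and 0 untreated. Its means were 6.06 ± 5.38 and 1.48 ± 2.38 CPM, with a log2 change of 2.91 ± 0.71 (edgeR, BH-adjusted p = 0.0143) that was 1.53 without A549 and 5.17 without HCT116.

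FOXN4 and FOXR1 rose at low levels. FOXN4, a factor of retinal and spinal progenitors in mice, had 0.986, 0.902 and 0.331 CPM under TSA, against 0.138, 0.234 and 0 untreated. Its means were 0.74 ± 0.356 and 0.124 ± 0.118 CPM and its log2 change 2.64 ± 0.85 (edgeR, BH-adjusted p = 0.0395). FOXR1 had 0.37, 0.481 and 0.994 CPM under TSA, against 0.138, 0.176 and 0.351 untreated, and its log2 change was 1.43 ± 0.49 (edgeR, BH-adjusted p = 0.0479). Its means were 0.615 ± 0.333 and 0.222 ± 0.114 CPM. FOXN4 had 16, 15 and 5 reads in the TSA libraries, against 2, 4 and 0 untreated, and FOXR1 had 6, 8 and 15, against 2, 3 and 5. DESeq2 called neither gene.

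FOXQ1, a forkhead factor linked to epithelial-mesenchymal transition and WNT signalling in carcinomas, fell the most. It had 0.925, 0.12 and 2.45 CPM under TSA, against 4.97, 0.0586 and 128 untreated. The fall was in A549 and MHCC97H, while HCT116 had hardly any reads in either condition. FOXQ1 averaged 1.17 ± 1.18 CPM under TSA and 44.3 ± 72.4 untreated, with a log2 change of -4.04 ± 0.79 (edgeR, BH-adjusted p = 0.00629), which was -1.78 without MHCC97H and -5.25 without A549. Within-line log2 ratios of CPM plus 1 were -1.63 in A549, 0.08 in HCT116 and -5.22 in MHCC97H.

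FOXQ1, FOXF2 and FOXC1 lie next to each other on chromosome 6 (FOXQ1 chr6:1312098-1314758, FOXF2 chr6:1389576-1395603, FOXC1 chr6:1609915-1613897, GRCh38.p14), with 77.5 and 220 kb between their starts. FOXF2 had 1.54, 0.361 and 0.464 CPM under TSA, against 13.4, 0 and 0.773 untreated. FOXC1, a factor of eye, skeletal and vascular development, had 4.32, 102 and 5.63 CPM under TSA, against 19.0, 41.3 and 14.0 untreated. In A549 and MHCC97H all 3 neighbours were lower in the TSA library, whereas in HCT116 all 3 were higher in it. Some of these differences are a few reads: FOXF2 had 7 reads in MHCC97H TSA, against 11 untreated, and 6 in HCT116 TSA, against 0 untreated, and FOXQ1 had 2 in HCT116 TSA, against 1 untreated. The fitted log2 changes of FOXF2 and FOXC1 over the 3 lines were -0.74 ± 1.26 and -0.48 ± 0.60 and were not called (edgeR, BH-adjusted p = 0.671 and 0.549). FOXC1 was called without HCT116. A second group lies on chromosome 16, where the starts of FOXF1, FOXC2 and FOXL1 are 56.3 and 11.7 kb apart. In HCT116 these had 4.81, 4.51 and 7.7 CPM in the TSA library, against 2.99, 0.293 and 5.8 CPM in the untreated library. In A549 they had 0.247, 1.85 and 5.3 CPM in the TSA library, against 0, 0.966 and 3.17 CPM untreated. In MHCC97H FOXF1 and FOXC2 were at 0 in both libraries, and FOXL1 had 4.44 CPM under TSA, against 15.5 CPM untreated. The fitted changes of FOXF1, FOXC2 and FOXL1 were 1.32 ± 0.95, 2.94 ± 1.37 and 0.02 ± 0.56, and none was called (edgeR, BH-adjusted p = 0.315, 0.143 and 0.978).

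FOXJ2, a widely expressed forkhead activator, had 17.9, 34.0 and 37.8 CPM under TSA, against 34.7, 60.8 and 63.3 untreated. It was lower in every line, though the ranges over the lines overlapped. Its means were 29.9 ± 10.6 and 52.9 ± 15.8 CPM, with a log2 change of -0.84 ± 0.17 (edgeR, BH-adjusted p = 0.00638) that stayed between -0.86 and -0.74 with each line left out. FOXP1, a repressor in lymphoid, heart and lung development, had 21.7, 5.41 and 23.4 CPM under TSA, against 31.7, 6.50 and 44.9 untreated, with means of 16.8 ± 9.93 and 27.7 ± 19.5. Its log2 change of -0.60 ± 0.21 (edgeR, BH-adjusted p = 0.0487) passed the threshold in 1 of 10 alternative settings. FOXL2 had 0.0616, 0.0601 and 0 CPM under TSA, against 2.07, 0.293 and 0 untreated, and its log2 change of -3.87 ± 0.96 (edgeR, BH-adjusted p = 0.0151) rests on A549 and HCT116, with 0 reads in both MHCC97H libraries. The means of FOXL2 were 0.0406 ± 0.0352 and 0.787 ± 1.12 CPM.

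**Figure D3:**
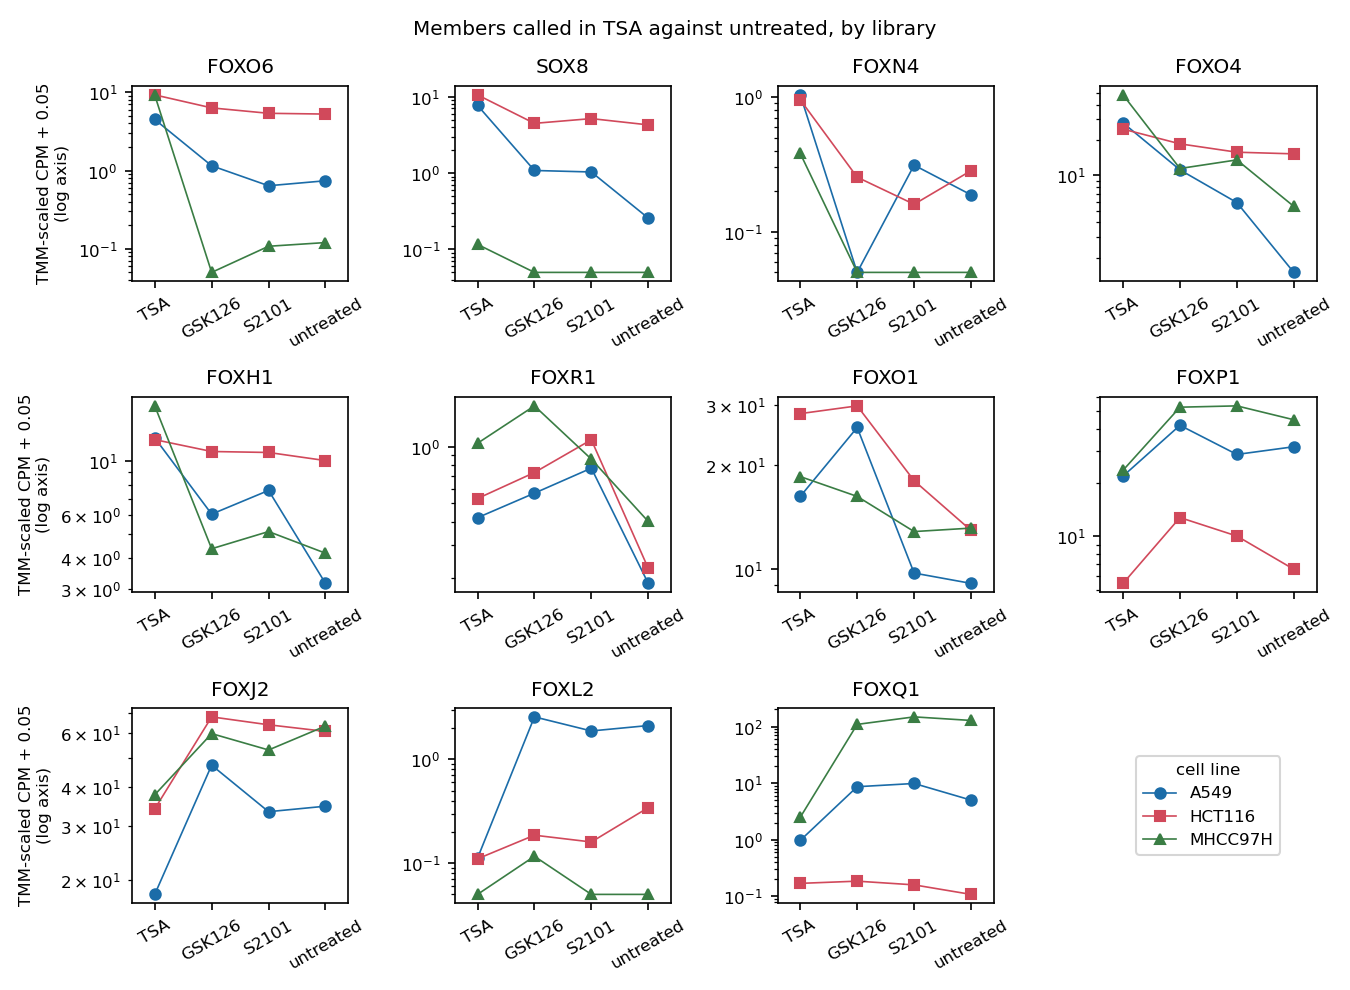
TMM-scaled CPM plus 0.05 (log axis) of the 11 FOX and SOX genes called in TSA against untreated, with 1 point per library and a line for each cell line, from TSA at the left to untreated at the right. FOXO4, FOXO1 and FOXH1 have all 3 TSA points above all 3 untreated points, and FOXQ1 drops in A549 and MHCC97H but not in HCT116.

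The remaining SOX genes were not called under TSA. SOX4 had 91.3, 685 and 297 CPM in TSA libraries, against 69.8, 137 and 243 untreated, and the HCT116 TSA library was the highest of all 12 (log2 change 1.29 ± 0.59; edgeR, BH-adjusted p = 0.119). In RPKM SOX4 had 20.3, 155 and 62.3 under TSA, 34.1, 31.3 and 78.1 under GSK126, 15.6, 19.5 and 75.0 under S2101, and 13.1, 29.2 and 43.9 untreated. SOX9 had 18.8, 114 and 20.1 CPM under TSA, against 18.1, 72.9 and 8.15 untreated (0.73 ± 0.38; BH-adjusted p = 0.162 in edgeR). SOX2 had 6.04, 1.5 and 61.8 CPM under TSA, against 2, 0.117 and 39.8 untreated, higher in each line (1.76 ± 0.73; BH-adjusted p = 0.087 in edgeR). SOX6, a SOXD partner of SOX9 in cartilage, had 0.555, 1.80 and 1.13 CPM under TSA, against 0.276, 0.352 and 0 untreated (2.54 ± 0.91; BH-adjusted p = 0.0564 in edgeR). SOX2 and SOX6 were called by DESeq2, as were FOXJ1, FOXN2 and FOXP2. The SOXF genes SOX7, SOX17 and SOX18 had log2 changes of 0.07 ± 0.40, 0.87 ± 0.75 and -1.20 ± 0.56, and none was called.

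FOXJ1 had 3.08, 0.541 and 1.66 CPM under TSA, against 0.207, 0.644 and 0 untreated, so that A549 and MHCC97H were higher and HCT116 was not (log2 change 2.70 ± 0.99; edgeR, BH-adjusted p = 0.0597). It was called in TSA against GSK126 and against S2101. Of 25 motile cilium genes tested, 11 rose under TSA and 0 fell (median log2 change 1.25, against 0.08 over all genes). Over all genes 17.4% were called higher and 17.2% lower. The list holds genes that FOXJ1 is known to control and also regulators such as GMNC. DNAI1, a dynein intermediate chain of motile cilia, had 6.35, 3.01 and 5.70 CPM under TSA, against 0, 0.469 and 0 untreated (log2 change 5.20 ± 1.16; edgeR, BH-adjusted p = 0.0102). DNAAF1, a dynein assembly factor, had 18.3, 4.15 and 2.39 CPM, against 0.345, 0.703 and 0. GMNC, which starts the multiciliated programme, and HYDIN, a protein of the axoneme's central pair, rose as well, by 4.58 ± 1.08 and 4.44 ± 0.87. The counts were 1 without MHCC97H, 0 without A549 and 15 without HCT116. The 4 multiciliated cell markers DNAI1, DNAI2, TEKT1 and HYDIN are all in the motile cilium list and add no further genes. They summed to 6.85 to 16.2 CPM of the library total in TSA libraries and 0.187 to 0.575 CPM in untreated libraries. Under TSA, TEKT1 had only 0.27, 0.0672 and 0.0684 CPM, and DNAI2 had 0.405, 0.134 and 1.78 CPM. The part of these 4 markers in the result was not tested.

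Genes around the FOXO factors moved in both directions under TSA. Of 23 FOXO target genes tested, 9 rose and 1 fell, and over all genes 17.4% were called higher and 17.2% lower. The target median log2 change was 0.90, unchanged when genes with 0 reads in all untreated libraries are set to their lower bound. The list was not split into genes that FOXO induces and genes that it represses, so a rise is not a measure of FOXO activity. SESN3, a stress sensor that FOXO induces, had 49.1, 20.6 and 44.2 CPM under TSA, against 6.9, 8.5 and 0.14 untreated (4.01 ± 1.17; edgeR, BH-adjusted p = 0.0273). CCND2, a cyclin, had 11.6, 0.301 and 2.85 CPM, and PCK1, the gluconeogenic enzyme, 1.6, 0.481 and 0.861 CPM under TSA, against 0 reads for both in all untreated libraries. IGFBP1, an insulin-repressed liver gene, went the other way, with 0.308, 0 and 4.37 CPM under TSA against 4.21, 0 and 63.6 untreated (-3.93 ± 0.63; edgeR, BH-adjusted p = 0.00299). Of 20 FOXO kinases and regulators 1 rose and 8 fell (median -0.05). PDPK1, the kinase that activates AKT, rose by 0.95 ± 0.30, whereas the deubiquitinase USP7 fell by 0.96 ± 0.15, SKP2, which targets FOXO1 for degradation, fell by 0.95 ± 0.20, and the kinase gene SGK2 fell by 2.55 ± 0.79 on the log2 scale. The target list had 2 genes higher and 1 lower without MHCC97H, 0 called without A549, and 8 higher and 4 lower without HCT116. The regulators had 0 called without MHCC97H, 0 without A549, and 4 higher and 8 lower without HCT116. Without the A549 S2101 library PDPK1 and SGK2 lost their calls.

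Targets and partners of the SOX factors were tested in smaller numbers. Of 11 SOX9 cartilage matrix genes 3 rose and 1 fell (median 1.30): ACAN, the aggrecan core protein, had 3.82, 1.14 and 0.861 CPM under TSA, against 0.207, 0.117 and 0 untreated. COMP rose by 5.02 ± 0.82 and COL11A2 by 2.40 ± 0.55, and COL27A1 fell by 1.30 ± 0.42. Of 10 SOX2 pluripotency partners 2 rose, the RNA-binding LIN28A (2.19 ± 0.55) and the nuclear receptor ESRRB (2.32 ± 0.69), with a median of 0.42. Of 8 neural genes tied to SOXB1 and SOXC factors 3 rose (PROX1 3.53 ± 0.81, NEUROG2 1.78 ± 0.50, TUBB3 1.07 ± 0.37) and TEAD2 fell by 1.70 ± 0.33, with a median of 1.16. These values are log2 changes with their SE from edgeR. In the same contrast 17.4% of all genes were called higher and 17.2% lower. Without A549 none of these lists had a call (0), and without MHCC97H ACAN and COMP were the only calls among them. Without the A549 S2101 library COL27A1 and TUBB3 lost their calls.

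Of 9 SOX10 neural crest and glial targets 2 rose and 1 fell (median -0.04). PMEL, a pigment cell gene, had 68.9, 25.4 and 32.7 CPM under TSA, against 0.897, 2.28 and 0.211 untreated (5.56 ± 0.74; edgeR, BH-adjusted p = 0.00192), and RET rose by 2.37 ± 0.67 while MBP fell by 1.72 ± 0.35. SOX10 itself had 0.493, 0.842 and 0.331 CPM under TSA, against 0.138, 0.293 and 0.211 untreated, and was not called. Of 11 endothelial genes tied to SOXF and FOXC factors 4 rose and 0 fell (median 1.69): DLL4 by 3.74 ± 0.83, PROX1, which is in the neural list too, by 3.53 ± 0.81, VWF by 2.89 ± 0.72 and CXCR4 by 2.64 ± 0.91. Of 11 Nodal pathway genes around FOXH1, NODAL rose by 3.11 ± 0.82 and SMAD3, SMAD2 and SMAD4 fell by 1.80 ± 0.45, 0.67 ± 0.19 and 0.46 ± 0.15 (median 0.25). NODAL is the pathway's ligand, and SMAD2, SMAD3 and SMAD4 carry its signal to FOXH1. Without A549 these 3 lists had 0 calls, and without MHCC97H PMEL and CXCR4 were their only calls. Without the A549 S2101 library CXCR4 and SMAD4 lost their calls. Over all genes 17.4% were called higher and 17.2% lower in the same contrast.

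Under GSK126, 0 of the 46 members and 0% of all genes were called against untreated by edgeR, with 8 members at an unadjusted p under 0.05. DESeq2 called 3 of 24 members that had an adjusted p (9.3% of all genes), and edgeR called 5 of 43 when the TSA libraries were left out of the fit (13% of all genes). With only the 6 GSK126 and untreated libraries edgeR called FOXD1 and FOXO3 (2 of 42, against 2.75% of all genes). With RLE size factors and with no filter on low counts it called 0 members, and 0.0413% and 0.0311% of all genes. FOXO1, FOXO3 and FOXN3 were called by DESeq2 and without the TSA libraries. FOXD1 was called without the TSA libraries and with the 6 libraries, and FOXR1 without the TSA libraries. All these calls were higher under GSK126. The shares of members called were near those of all genes. The comparisons with TSA and with GSK126 share their untreated libraries, so the values below are given for each on its own.

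FOXO3 had 77.8, 136 and 102 CPM in GSK126 libraries, against 30.9, 83.7 and 56.2 in untreated ones, higher in every line. It averaged 105 ± 29.4 CPM under GSK126 and 56.9 ± 26.4 untreated, a log2 change of 0.98 ± 0.23 (edgeR, BH-adjusted p = 0.103; 0.0216 without the TSA libraries; DESeq2, 0.00366). FOXO1 had 25.7, 29.7 and 16.2 CPM under GSK126, against 9.04, 12.9 and 13.1 untreated, and no value overlapped. Its means were 23.9 ± 6.93 and 11.7 ± 2.29 CPM, with a log2 change of 1.03 ± 0.25 (edgeR, BH-adjusted p = 0.107; 0.0271 without the TSA libraries; DESeq2, 0.00415). FOXN3, a checkpoint-linked repressor, had 51.5, 43.6 and 43.7 CPM, against 21.4, 36.6 and 23.2, with a log2 change of 0.81 ± 0.24 (edgeR, BH-adjusted p = 0.138; 0.0316 without the TSA libraries). FOXN3 lay above all untreated values in every GSK126 library. FOXD1 had 19.8, 41.6 and 0.466 CPM under GSK126, against 10.6, 18.6 and 0.211 untreated (1.01 ± 0.41; edgeR, BH-adjusted p = 0.258, and 0.0235 without the TSA libraries). FOXO4 had 11.1, 18.5 and 11.4 CPM, against 1.45, 15.2 and 5.41 (1.19 ± 0.55; edgeR, BH-adjusted p = 0.324, and 0.075 without the TSA libraries), and FOXO6 had 1.10, 6.26 and 0 CPM against 0.69, 5.21 and 0.0702.

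**Figure D4:**
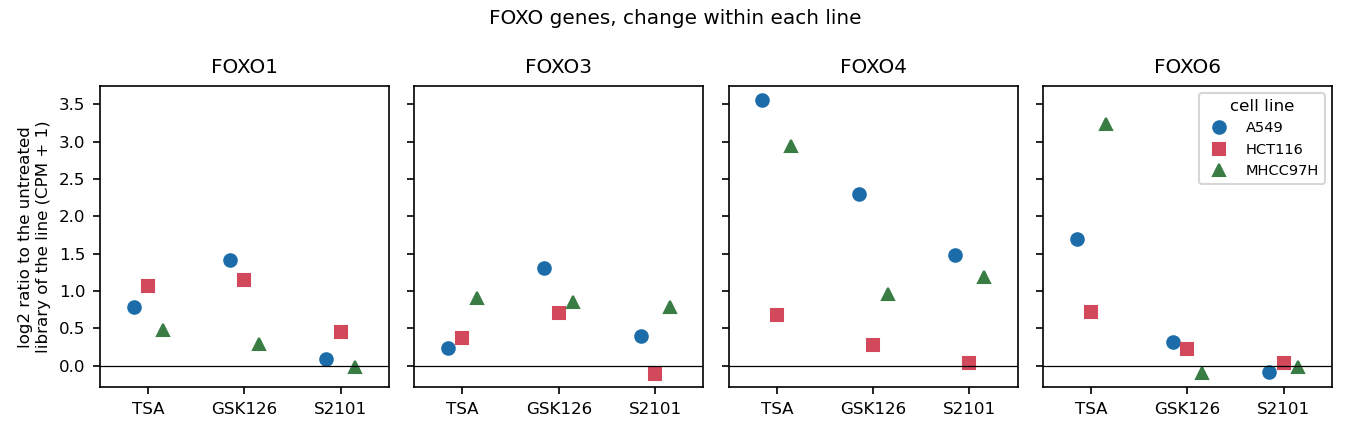
Within-line log2 ratio of each compound's library to the untreated library of the same line (TMM-scaled CPM plus 1) for 4 FOXO genes, 1 point per line. FOXO4 reaches 3.56 in A549 and 2.94 in MHCC97H under TSA but 0.67 in HCT116, and FOXO3 is highest under GSK126 in A549 (1.30).

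FOXO target genes had a median log2 change of 0.98 under GSK126 (0.01 over all genes). In the fit on 12 libraries 0 of 23 were called. Without the TSA libraries 8 of 21 were called, all higher, against 13% of all genes in either direction. IGFBP1, which fell under TSA, had 30.3, 0.204 and 327 CPM under GSK126, against 4.21, 0 and 63.6 untreated (2.74 ± 0.51; edgeR, BH-adjusted p = 0.0903, and 0.0191 without the TSA libraries). SKP2 had 15.4, 27.5 and 21.5 CPM, against 42.3, 58.1 and 34.2 (-1.05 ± 0.20; edgeR, BH-adjusted p = 0.0937, and 0.0181 without the TSA libraries), and was the 1 call among the 20 regulators in that fit. The target median was 0.43 without A549. In the other lists 0 genes were called under GSK126 over 12 libraries, with medians of -0.07 for the FOXO regulators, 0.03 for the motile cilium genes, 0.32 for the SOX9 targets, 0.21 for the pluripotency partners, -0.02 for the neural genes, 0.10 for the SOX10 targets, 0.62 for the endothelial genes and 0.33 for the Nodal genes.

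Of 46 members, 13 were higher in all 3 lines under GSK126 (28.3%, against 22% of all genes) and 3 lower (6.52%, against 22.9%), namely FOXE1, FOXO3B and SOX13. SOX21 in A549 had 4.07 CPM under GSK126, 3.67 under S2101 and 0.74 under TSA, against 1.03 untreated, and SOX9 in A549 had 58.9 CPM under GSK126, against 18.1 untreated. FOXD3, a neural crest factor, had 3.43 CPM in A549 GSK126, against 0.828 CPM in untreated A549. Neither SOX21, SOX9 nor FOXD3 was called over the 3 lines.

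Under S2101, 0 of the 46 members and 0% of all genes were called against untreated by edgeR, DESeq2 called 0 members (0.191% of all genes), and 1 member, FOXR1, had an unadjusted p under 0.05. Without the A549 S2101 library edgeR again called 0 members and 0% of all genes, and 2 members had an unadjusted p under 0.05. The log2 changes below include that library. FOXR1 had 0.72, 1.04 and 0.81 CPM under S2101, against 0.138, 0.176 and 0.351 untreated, without overlap (log2 change 2.03 ± 0.48; edgeR, BH-adjusted p = 0.939). FOXO3 had 40.9, 77.3 and 97.7 CPM under S2101, against 30.9, 83.7 and 56.2 untreated (0.37 ± 0.23), and FOXO4 had 5.83, 15.7 and 13.5 CPM, against 1.45, 15.2 and 5.41 (0.86 ± 0.54). FOXQ1 had 9.82, 0.11 and 148 CPM, against 4.97, 0.0586 and 128 (0.49 ± 0.58). FOXJ2 had 33.3, 63.9 and 52.9 CPM, against 34.7, 60.8 and 63.3 (-0.08 ± 0.16). Higher in all 3 lines were 7 members (15.2%, against 17.9% of all genes) and lower in all 3 were 5 (10.9%, against 21%). The FOXO target median was 0.33 and IGFBP1 had 13.4, 0.0549 and 787 CPM, against 4.21, 0 and 63.6 untreated (2.84 ± 0.52, not called).

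Set against the other compounds, TSA gave 9 calls against GSK126 (29% of all genes) and 10 against S2101 (26.6% of all genes). Against GSK126, FOXJ1, FOXN4 and SOX8 were higher under TSA and FOXJ2, FOXK1, FOXL2, FOXN2, FOXP1 and FOXQ1 lower. FOXP1 had 21.7, 5.41 and 23.4 CPM under TSA, against 41.8, 12.7 and 52.8 under GSK126, lower by a log2 of -1.11 ± 0.21 (edgeR, BH-adjusted p = 0.00597). FOXK1 had 121, 211 and 204 CPM under TSA, against 202, 284 and 255 under GSK126 (-0.49 ± 0.14; edgeR, BH-adjusted p = 0.0307). FOXN2 had 20.8, 25.3 and 35.4 CPM under TSA, against 56.5, 30.7 and 47.8 under GSK126 (-0.71 ± 0.22; edgeR, BH-adjusted p = 0.0398). Against S2101, FOXJ1, FOXN4, FOXO4, FOXO6, SOX6 and SOX8 were higher under TSA and FOXJ2, FOXL2, FOXP1 and FOXQ1 lower. Without the A549 S2101 library 3 of these 10 were called (FOXJ2, FOXP1 and FOXQ1), and FOXK1, FOXN2 and SOX8 lost their calls against GSK126. Without MHCC97H the counts were 1 (FOXJ2) against GSK126 and 0 against S2101, without A549 both were 0, and without HCT116 they were 11 and 8. The shares of all genes called in these smaller fits were not counted. Whether a loss or gain of calls is particular to the members was therefore not tested.

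The number of members detected at 1 CPM or more was higher in the TSA library of each line. TSA libraries detected 35, 35 and 30 members, GSK126 libraries 33, 30 and 25, S2101 libraries 33, 32 and 23, and untreated libraries 31, 31 and 24. The gain under TSA was 4.67 ± 1.15 members (SD, n = 3 lines; exact two-sided sign-flip permutation p = 0.25, the smallest that 3 lines allow). Under GSK126 and under S2101 it was 0.67 ± 1.53 (exact p = 0.75 each). Over all genes the detected share was 57.1 to 59.1% in TSA libraries and 51.1 to 54% in untreated ones.

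In A549, TSA brought FOXC2, FOXD3, FOXI3, FOXJ1, FOXN4, FOXO6, SOX8 and SOX11 to 1 CPM or more and took FOXD4L2, FOXL2, SOX15 and SOX18 below it. In HCT116 FOXC2, FOXN4, FOXP3, SOX2 and SOX6 came up, against FOXD4L2 that went below 1 CPM. In MHCC97H FOXD4, FOXD4L6, FOXJ1, FOXO6, FOXP2, FOXR1 and SOX6 came up and SOX18 went below it. Some of these crossings were not limited to TSA. In A549 FOXC2 and FOXD3 also came up under GSK126 and under S2101, and FOXO6 and SOX8 under GSK126. SOX18 went below 1 CPM in A549 under each compound, and FOXD4L2 under GSK126 as well. In MHCC97H FOXR1 also came up under GSK126. SOX11, a SOXC factor of embryonic neurons, had 2.77 CPM in A549 TSA, 0.0646 in A549 GSK126, 0.131 in A549 S2101 and 0 in untreated A549. FOXI3, a factor of ectodermal organs, had 1.66 CPM in A549 TSA, 0.129 in A549 GSK126, 0 in A549 S2101 and 0 in untreated A549. Both were at 0 in the 8 libraries of the other lines. FOXP3, the factor of regulatory T cells, had 1.01 CPM of the library total in HCT116 TSA (0.902 after TMM scaling), against 0.234 scaled CPM in untreated HCT116. The T cell genes CD3D and CD3E were at 0 and 0.0672 CPM in the HCT116 TSA library, and FOXP3 overlaps CCDC22 on the other strand.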

How the data were processed

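Poly(A) RNA libraries were made with a NEBNext Ultra kit after Trizol extraction, per the labels' protocols. The authors deposited 1 table per library with raw read counts per gene and RPKM values, per the file headers; RPKM uses the length of the longest listed transcript. The submitters' processing notes name the builds GRCh38 and hg38. The aligner, counter and handling of strand are not stated there, so overlapping genes and near-identical copies are uncertain. A line that holds no read count, in 11 of 12 files, was left out and takes no share of the counts.

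Counts were fitted with edgeR 4.0.16 (R 4.3.3): TMM scaling (factors 0.889 to 1.12), filterByExpr (16929 genes kept), terms for condition and cell line, 12 libraries, 6 residual degrees of freedom, quasi-likelihood F tests and Benjamini-Hochberg adjustment over all genes. Calls were adjusted p under 0.05. The line is the pairing by design: libraries of 1 line deviated together from the means of their conditions (correlation 0.695 to 0.949 over 18 pairs). Values for different lines were -0.627 to -0.243. Deviations of the lines cancel within a condition, so these negative values follow from the same-line ones and are not separate evidence. The lowest chi-square per gene between libraries of 1 line was 11, above sampling noise, so all 12 were treated as separate libraries. SE is that of the log2 change. Within-line ratios used TMM-scaled CPM plus 1. Detection used CPM of library totals. The fit was tested on simulated data. Floors cover counting error only. SD and SE also hold the spread between libraries.

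Genes were named by a rule: every member called under a compound, the 12 highest by RPKM, members highest in 1 line and, per gene list, at most 4 called genes or the 2 largest changes. Other members that are named with values were chosen after their values were seen. RefSeq annotation of GRCh38.p14 matched 65 of 66 members. Members and lists were chosen with earlier results of these data known. Alternatives were RLE size factors, other filters, no cell line term, fewer libraries, each line left out, and DESeq2 1.42.0. Not every member is reported by name here.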

Additional observations from a re-analysis of the deposited data

Results flagged for a closer look

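FOXC1 moved in opposite directions between lines under TSA. Its within-line log2 ratio of TMM-scaled CPM plus 1 was 1.29 in HCT116 and -1.91 in A549, and in MHCC97H it was -1.18. The level was 102 CPM in HCT116 TSA, against 41.3 CPM in untreated HCT116, and 4.32 CPM in A549 TSA, against 19.0 CPM in untreated A549. With 1 library per line and condition, the difference between the lines was not tested.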

How the results depend on the processing

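In a fit without the cell line as replicate block, no member was called in TSA against untreated (0 in place of 11), against GSK126 (0 in place of 9) or against S2101 (0 in place of 10); for GSK126 and S2101 against untreated the count was 0 with and without the block. With only the 6 libraries compared, these 3 counts for TSA were 0, 0 and 0, and GSK126 against untreated gave 2 (FOXD1 and FOXO3). GSK126 against untreated gave 5 without the TSA libraries and 3 with DESeq2. Without the block 1.59% of all genes were called in TSA against untreated. TSA against S2101 gave 3 without the A549 S2101 library. With no condition term A549 against MHCC97H gave 18, A549 against HCT116 gave 19 and HCT116 against MHCC97H gave 14. With each line left out, TSA against untreated gave 0 to 10 calls, TSA against GSK126 0 to 11 and TSA against S2101 0 to 8. In the same fits 0.0741% to 40% of all genes were called in TSA against untreated. That share was not counted for TSA against GSK126 or S2101. Fits that leave out a line or a group also hold fewer libraries. The cause of these changes in count was not tested.

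None of the 11 genes called under TSA changed direction (0 reversals in 103 gene and setting pairs, of which 52 lost the call). FOXP1 kept its call in 1 of 10 alternatives, FOXR1 in 2 of 9 and FOXN4 in 2 of 6, where it was tested. Members detected per library averaged 30.2 at 1 CPM, 43.3 at 0.1 CPM and 20.8 at 5 CPM. The gain in detected members under GSK126 was -0.33 at 0.1 CPM, and with each line left out it was 0.00 to 1.5 for GSK126 and 0.00 to 1.5 for S2101, lowest without A549 in both. Depth limits FOXN4 and FOXR1, which had at most 16 and 15 reads in a TSA library and 4 and 5 in an untreated one, and with 1 library per line and condition no difference within a line can be tested.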
